A study of Sus scrofa with 15 samples.

Results

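Expression of ACSL5, SLC27A6 and VLDLR, genes through which cells take up and trap lipid, was followed in the backfat of 15 castrated male Iberian pigs. Every probe set whose platform annotation gave exactly ACSL5, SLC27A6 or VLDLR was taken, which made 5 of the 3255 probe sets tested and 3 of the 1260 genes that carried a single symbol. ACSL5 had 3 probe sets (called probe sets 1, 2 and 3 from the brightest down), SLC27A6 had 1 and VLDLR had 1. The study fed 8 pigs a high-oleic diet, enriched in oleic acid, and 7 pigs a standard control diet. Both diets ran from 28 kg live weight to slaughter at about 110 kg, over 24 weeks. The labels at hand give no age. The feed held 3360 kcal of crude energy per kg in the high-oleic diet and 3130 kcal in the control diet. Control animals received 10% more feed by weight, so that energy and protein supply matched. Backfat is the subcutaneous fat over the back, and the labels place these samples in its inner layer. One expression array was hybridised per animal, so each animal was a replicate.

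Fat cells receive fatty acids mostly from circulating lipoproteins, whose triglyceride is split at the vessel wall by lipoprotein lipase. VLDLR, the very low density lipoprotein receptor, binds apolipoprotein E-rich particles and is known from mice to aid this delivery to fat. Fatty acid transport proteins, of which SLC27A6 (also called FATP6) is known mainly from human and mouse heart, help fatty acids across the plasma membrane. Long-chain acyl-CoA synthetases such as ACSL5 then join them to coenzyme A, which holds them in the cell and commits them to storage or oxidation.

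Signals are on the log2 scale, where a difference of 1 is a doubling, and array medians lay between 6.38 and 6.67. The table held only probe sets with at least 3 arrays 1.5-fold or more away from the probe set's median, and steadier genes are outside these results. Of 21 fat cell markers 3 were in the table, LEP at 10.29 to 12.52, PNPLA2 at 8.11 to 9.37 and PCK1 at 3.47 to 8.75 over the 15 animals. Most defining fat cell genes were therefore not analysed here. High-oleic animals weighed 109.2 ± 3.52 kg (SD, n = 8) at slaughter and control animals 117.2 ± 7.32 kg (SD, n = 7). The difference of -8.03 kg had a two-sided exact permutation p of 0.00435. The diet comparison of each gene is therefore also a comparison of lighter with heavier animals. Array values of fat measure RNA from all its cells, and fewer cells of a type cannot be told apart from less RNA per cell.

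No diet difference of ACSL5, SLC27A6 or VLDLR passed the test, and each was smaller than the SD among high-oleic animals. In limma with Benjamini-Hochberg adjustment over 3255 probe sets, 0 of 5 member probe sets passed an adjusted p of 0.05, against a background of 0% of all probe sets. At an unadjusted p of 0.05 the members again counted 0 of 5, with 3.93% of all probe sets past it. The ranges of both diets overlapped for all 5, and 0.0307% of all probe sets had ranges that did not. The panels of members by diet show each animal.

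**Figure D1:**
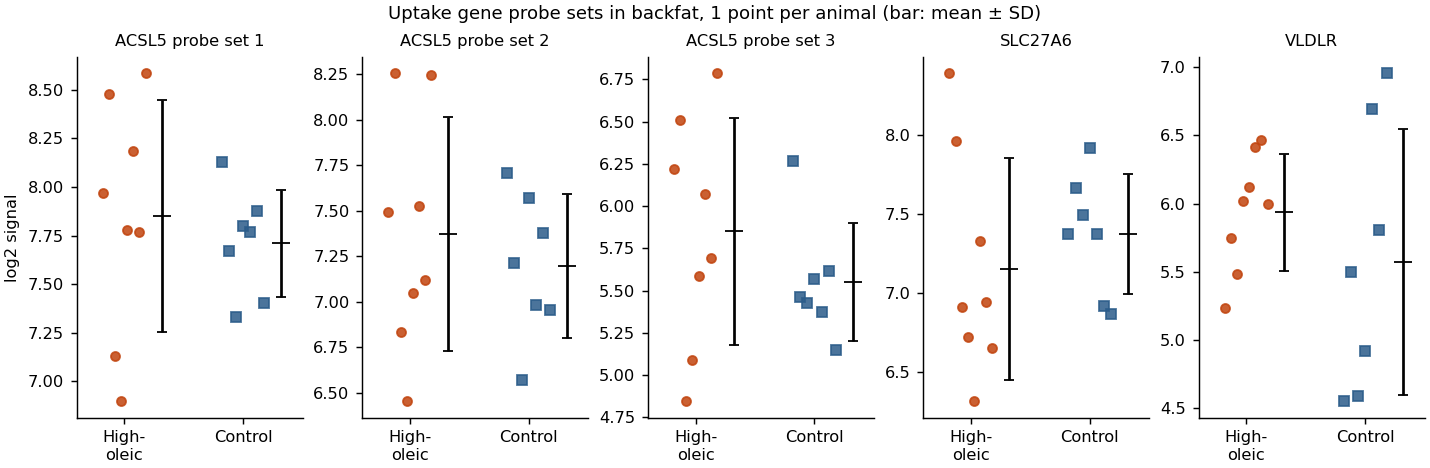
log2 signal of the 5 probe sets in each animal, high-oleic animals (circles) left of control animals (squares), with the mean ± SD beside each group. The high-oleic animals spread more widely than control animals for ACSL5 and SLC27A6, while for VLDLR the control animals, from 4.55 to 6.95, enclose all 8 high-oleic animals.

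ACSL5, the acyl-CoA synthetase, gave nearly the same pattern over animals on each of its probe sets. Probe set 1 ran from 6.90 to 8.58 with a median of 7.87 on the high-oleic diet, against 7.33 to 8.13 with a median of 7.77 on the control diet. The high-oleic animals held both ends of the range, and all 7 control animals lay between them. Means were 7.85 ± 0.60 (SD, n = 8) on the high-oleic diet and 7.71 ± 0.28 (SD, n = 7) on the control diet. The difference of 0.14 had a standard error of 0.27 and a 95% interval of -0.41 to 0.69 (limma, adjusted p = 0.999). Probe set 2 ran from 6.45 to 8.25 (median 7.31) in high-oleic animals and from 6.57 to 7.71 (median 7.21) in control animals. Probe set 3 ran from 4.85 to 6.79 (median 5.88) in high-oleic animals and from 5.15 to 6.27 (median 5.46) in control animals. On both, as on probe set 1, every control animal lay within the range of the high-oleic animals. Probe set 2 differed by 0.18 (95% interval -0.42 to 0.77) and probe set 3 by 0.30 (95% interval -0.30 to 0.90). As ratios of high-oleic to control these intervals run from 0.750 to 1.61, 0.748 to 1.71 and 0.812 to 1.86 for probe sets 1, 2 and 3. With single animals left out the difference of probe set 1 was between 0.033, without high-oleic animal 8, and 0.27, without high-oleic animal 4. Probe set 2 differed by 0.050 when high-oleic animal 2 was left out and by 0.31 when high-oleic animal 4 was. Probe set 3 differed by 0.17 when high-oleic animal 8 was left out and by 0.44 when high-oleic animal 3 was. In animals of 109.5 to 118 kg (4 high-oleic, 6 control) the differences were -0.31, -0.37 and -0.28 for probe sets 1, 2 and 3, so their sign was not settled. This range of weight leaves out high-oleic animals 1, 2, 6 and 8, at 7.97, 8.48, 8.18 and 8.58 on probe set 1. They were the highest of that diet on each ACSL5 probe set.

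Agreement among the ACSL5 probe sets was close. Over the 15 animals they correlated with r = 0.938 for probe sets 1 and 2, 0.930 for 1 and 3, and 0.890 for 2 and 3. These pairs share gene and library, and among 222 such pairs of probe sets of 1 gene in the table the median r was 0.882. High-oleic animals 8 and 2 took the first 2 ranks on every ACSL5 probe set, and high-oleic animals 3 and 4 were among the lowest 3 on each. Averaged over the probe sets, these animals stood 0.94 and 0.82 above and 0.66 and 0.78 below the mean of the 15.

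**Figure D2:**
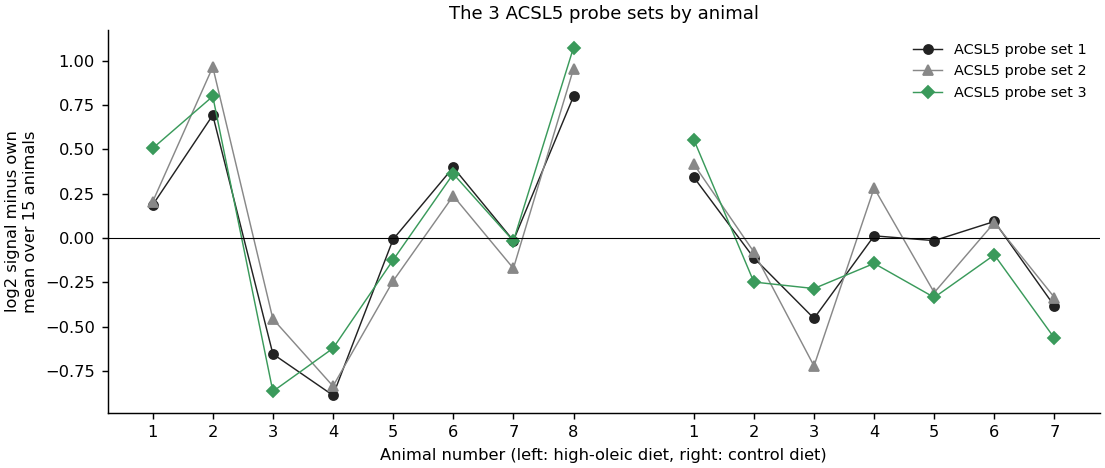
log2 signal of each ACSL5 probe set minus its own mean over the 15 animals (y axis) by animal number, high-oleic animals left and control animals right. The 3 lines run together, peaking in high-oleic animals 2 and 8 and dipping in high-oleic animals 3 and 4, while control animals stay between -0.72 and 0.56.

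The spread of ACSL5 among animals was wider on the high-oleic diet. The standard deviation was 2.17 times that of the control animals on probe set 1, 1.63 times on probe set 2 and 1.92 times on probe set 3. Over all probe sets the median of this ratio was 1.12, and the ratio of probe set 1 was above that of 92.9% of them. No test of the difference in spread was made, and these values describe the present animals. The table kept only probe sets with arrays far from their median, so these ratios are not independent of that filter. The 4 arrays 1.5-fold or more from the median of probe set 1 were high-oleic animals 2, 3, 4 and 8. Control animal 3 on probe set 2 and control animal 1 on probe set 3 were the only control animals that far out.

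ACSL5 was higher in animals with a higher signal of macrophage markers. A macrophage score was taken as the mean, over the 8 of 16 listed marker genes in the table, of each gene's log2 signal minus its mean over the 15 animals. It ranged from -1.18 to 1.28 (SD 0.94, n = 8) on the high-oleic diet and from -0.22 to 0.10 (SD 0.12, n = 7) on the control diet. High-oleic animals 8 and 2, the highest for ACSL5, had the highest scores, 1.28 and 1.08, and high-oleic animals 4 and 3, at the other end, the lowest, -1.18 and -0.89.

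Probe set 1 of ACSL5 correlated with the score with r = 0.875 (permutation p = 5.0e-05) and rho = 0.861 (permutation p = 3.0e-05). Over the 36 relations computed between the uptake genes, or between them and sample scores, the adjusted p was 0.00180 for r and 0.00108 for rho, and this was the only relation of the 36 under 0.05. Within diets r was 0.925 among 8 high-oleic animals and 0.725 among 7 control animals, and without high-oleic animals 4 and 8, the farthest from the median score, it was 0.767. Leaving out each animal in turn gave 0.834 to 0.921. Probe sets 2 and 3 had r = 0.854 and 0.862. The lists and members were chosen with earlier results known, so the permutation p is a description of these animals.

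The macrophage markers did not all follow ACSL5 equally. On probe set 1, r was 0.896 for AIF1, a calcium-binding protein of macrophages, and 0.891 for FCER1G and 0.870 for TYROBP, both signalling adaptors of myeloid receptors. The complement genes C1QA and C1QC stood at 0.807 and 0.811 and the Fc receptor FCGR1A at 0.690. CD163, the scavenger receptor for haptoglobin-haemoglobin, was at 0.511 and the mannose receptor MRC1 at 0.159. AIF1 lay between 7.50 and 10.42 on the high-oleic diet and between 8.29 and 9.56 on the control diet, so the wider spread of high-oleic animals was seen in it too. FCER1G ran from 6.82 to 10.24 on the high-oleic diet and from 7.64 to 8.71 on the control diet. FCGR1A reached 6.97 on the high-oleic diet against 3.89 at most on the control diet. The other markers were at 6.36 or more in every animal, while FCGR1A had a median of 3.20 in high-oleic animals and 3.16 in control animals.

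With the macrophage score in the fit, a setting chosen after the values were seen, the ACSL5 diet differences were 0.09, 0.12 and 0.25 for probe sets 1, 2 and 3. The standard error of probe set 1 was then 0.19, against 0.27 without the score. This drop follows from the correlation of the score with probe set 1 in the same animals and is not a separate result. Whether the macrophage markers account for any part of the ACSL5 signal was not tested.

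**Figure D3:**
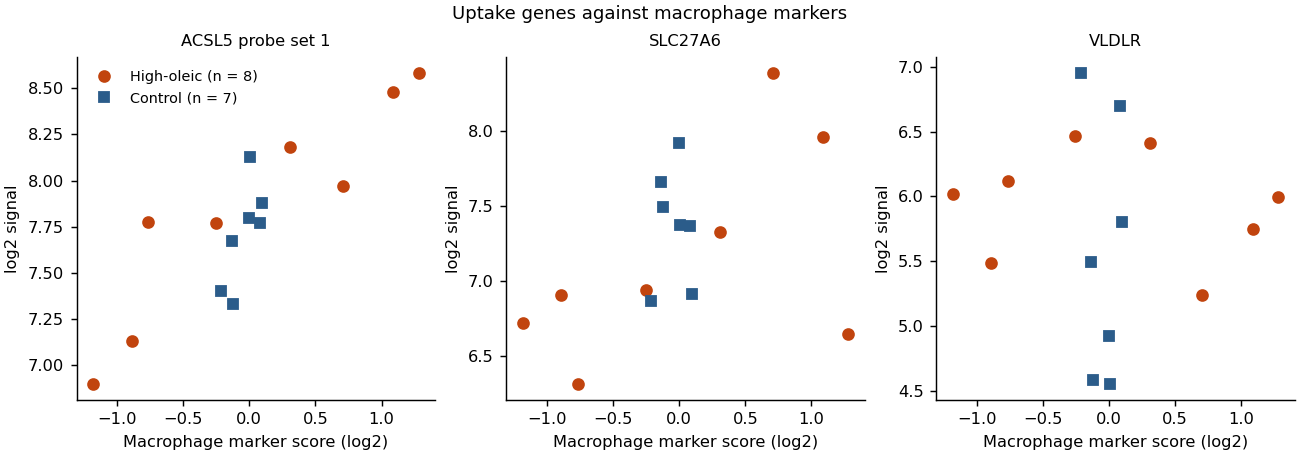
log2 signal of ACSL5 probe set 1, SLC27A6 and VLDLR (y axes) against the macrophage score in log2 units (x axis), 1 point per animal. The correlation is 0.875 for ACSL5, 0.473 for SLC27A6 and -0.058 for VLDLR, and the control animals sit in a narrow band of scores from -0.22 to 0.10.

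The genes with the pattern most like ACSL5, after subtraction of diet means, were TIMP1, IFI30 and SERPINB1, with r of 0.950, 0.950 and 0.946 over 15 animals. TIMP1 inhibits matrix metalloproteinases, IFI30 is a lysosomal thiol reductase of antigen-presenting cells and SERPINB1 inhibits neutrophil proteases. Without any 1 animal these values lay between 0.926 and 0.961. The most opposite were MXI1, a MYC antagonist, at -0.817 and PPP3CA, the catalytic subunit of calcineurin, at -0.781. Of 1450 named probe sets compared, 68 had r of 0.8 or more with ACSL5, against 5 with SLC27A6 and 1 with VLDLR.

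SLC27A6, the fatty acid transport protein, was 7.15 ± 0.70 (SD, n = 8) on the high-oleic diet and 7.37 ± 0.38 (SD, n = 7) on the control diet. High-oleic animals ran from 6.31 to 8.39 with a median of 6.92, and control animals from 6.87 to 7.92 with a median of 7.37. High-oleic animals 1 and 2, at 8.39 and 7.96, stood above every control animal, while 6 of the 8 high-oleic animals lay below the control mean. The difference of -0.22 had a standard error of 0.30 and a 95% interval of -0.84 to 0.40 (limma, adjusted p = 0.999). Without high-oleic animal 1 it was -0.40, and without high-oleic animal 5, the lowest, -0.10. In animals of 109.5 to 118 kg it was -0.65 (95% interval -1.24 to -0.06, adjusted p = 0.966). This range of weight leaves out high-oleic animals 1, 2, 6 and 8, at 8.39, 7.96, 7.33 and 6.65, and control animal 5, at 7.37.

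The spread of SLC27A6 on the high-oleic diet was 1.86 times that on the control diet, a ratio above that of 87.1% of probe sets. Of the 6 arrays 1.5-fold or more from the SLC27A6 median, all but control animal 4 were high-oleic. The table kept SLC27A6 through such arrays, so this ratio is not independent of the filter. No test of the difference in spread was made. With the macrophage score the correlation of SLC27A6 did not pass, at r = 0.473 (permutation p = 0.0753, adjusted p = 0.536), and r was 0.031 among control animals. Without high-oleic animals 4 and 8, the farthest from the median score, it was 0.761. Nearest in pattern were RARRES1, a retinoid-induced membrane protein, at r = 0.859, HACD4 of the fatty acyl-CoA dehydratase family at 0.821 and the lysosomal protein LAMP2 at 0.802. Most opposite were CAMK2G, a calcium and calmodulin dependent kinase, at -0.913 and the deubiquitinase MINDY1 at -0.863.

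VLDLR, the lipoprotein receptor, had the widest range among ACSL5, SLC27A6 and VLDLR, 2.40 log2 units over the 15 animals, a 5.28-fold span. It was 5.94 ± 0.43 (SD, n = 8) on the high-oleic diet and 5.57 ± 0.97 (SD, n = 7) on the control diet. High-oleic animals ran from 5.24 to 6.46 with a median of 6.01, and control animals from 4.55 to 6.95 with a median of 5.50. Control animals 1, 3 and 4, at 4.55, 4.59 and 4.92, lay below all 8 high-oleic animals, and control animals 5 and 7, at 6.70 and 6.95, above all of them. The difference of 0.36 had a standard error of 0.35 and a 95% interval of -0.37 to 1.09 (limma, adjusted p = 0.999), which does not exclude a doubling. It was 0.59 without control animal 7, 0.55 without control animal 5 and 0.19 without control animal 1.

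VLDLR, unlike ACSL5 and SLC27A6, had the smaller spread on the high-oleic diet. Its SD there was 0.44 times that of the control animals, and 2.06% of probe sets had a smaller ratio. Of the 7 arrays 1.5-fold or more from the VLDLR median, all but high-oleic animals 6 and 7 were control animals. The table kept VLDLR through such arrays, so its ratio is not independent of the filter. Here too the difference in spread was not tested. Closest to VLDLR were SLC25A12, the mitochondrial aspartate and glutamate carrier, at r = 0.837, the transcriptional cofactor TRIM24 at 0.790 and the RNA-binding protein LARP4 at 0.787. Most opposite were ZWILCH of the kinetochore at -0.813 and UNK, an RNA-binding protein, at -0.789.

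No slope of an uptake gene on live weight passed the test at fixed diet. VLDLR had a positive slope of 0.74 per 10 kg of live weight, with a standard error of 0.30 and a 95% interval of 0.12 to 1.36. The unadjusted p was 0.0226 and the limma adjusted p 0.916. Of the 5 member probe sets 1 was under an unadjusted p of 0.05, with 3.81% of all probe sets there, and 0 passed after adjustment, against 0% of all probe sets. The slope was 0.68 among high-oleic animals alone (95% interval -0.53 to 1.89) and 0.76 among control animals alone (95% interval -0.12 to 1.63). Without control animal 5, which weighed 133 kg and had a VLDLR signal of 6.70, the slope was 0.81, with a wider 95% interval of -0.39 to 2.01 and an unadjusted p of 0.173. With each other animal left out in turn it was between 0.64 and 0.84. Without the diet term it was 0.30, with an unadjusted p of 0.270. The slopes of the 15 skeletal muscle markers in the table were all above 0, with a median of 1.02 per 10 kg, against 1771 of 3255 probe sets above 0 and a median of 0.037. None of the 15 passed the limma test, and their part in the VLDLR slope was not tested. These markers were measured in the same animals, so their slopes are not independent results. In other lists, 0 of 8 macrophage, 1 of 16 interferon response and 6 of 8 fibroblast genes had slopes above 0.

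**Figure D4:**
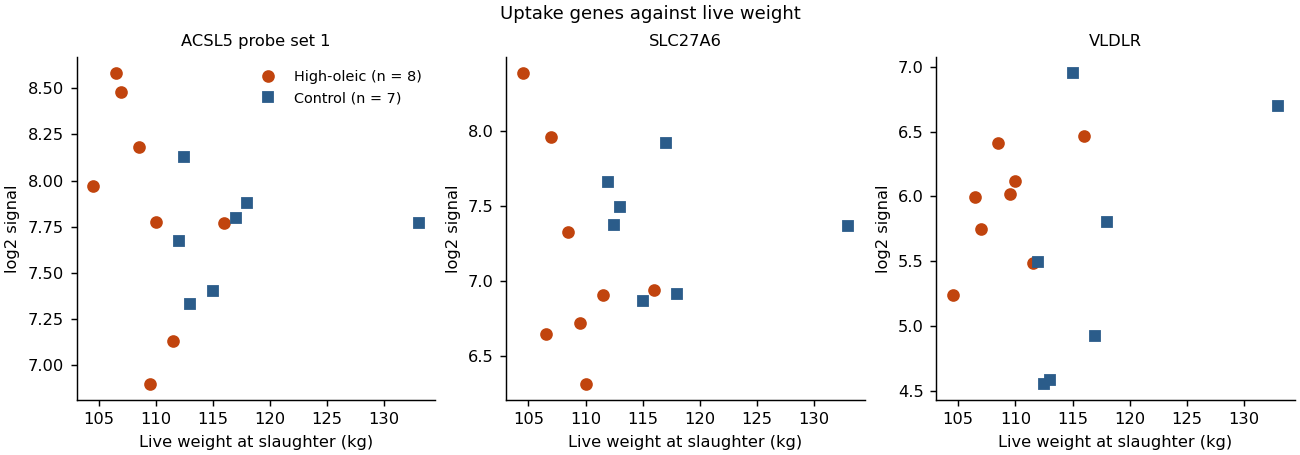
log2 signal of ACSL5 probe set 1, SLC27A6 and VLDLR (y axes) against live weight at slaughter in kg (x axis), 1 point per animal. VLDLR has a slope of 0.68 per 10 kg among high-oleic animals and 0.76 among control animals, and control animal 5 stands alone at 133 kg.

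With live weight in the fit, the diet difference of VLDLR was 0.96 (SE 0.39, 95% interval 0.13 to 1.78). Its unadjusted p was 0.0250, and 2.98% of all probe sets were under 0.05 in that fit. The adjusted p was 0.9995, and 0% of all probe sets passed. The diets overlapped in weight only between 112 and 116 kg, where high-oleic animal 7 was the only animal of its diet. In animals of 109.5 to 118 kg the difference was 0.64 (95% interval -0.28 to 1.55). Weight was not matched there, as high-oleic animals weighed 109.5 to 116 kg and control animals 112 to 118 kg. The values for SLC27A6 and for ACSL5 probe set 1 in the fit with live weight were -0.43 (95% interval -1.21 to 0.36) and 0.037 (95% interval -0.68 to 0.75).

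VLDLR was set against the signal of the 7 control probe sets for bacterial transcripts, which are added to the RNA during preparation. This spiked signal ranged from 5.25 to 7.29 on the high-oleic diet and from 5.19 to 6.12 on the control diet. On both diets it was lowest in animal 1 and highest in the animal with the last number, high-oleic animal 8 and control animal 7. Its correlation with VLDLR was r = 0.572 (permutation p = 0.0244, adjusted p = 0.417) and rho = 0.700 (permutation p = 0.00478, adjusted p = 0.0860). Within diets r was 0.634 among high-oleic animals and 0.778 among control animals, and without control animal 1 and high-oleic animal 8 it was 0.631. SLC27A6 ran the other way, with r = -0.544 (permutation p = 0.0347, adjusted p = 0.417). With the spiked signal added to the fit of diet and live weight, the VLDLR slope on live weight was 0.61. In a separate fit of diet and spiked signal, without live weight, the diet difference was 0.14 for VLDLR and -0.049 for SLC27A6. Without the spiked signal these diet differences were 0.36 and -0.22. The part of the spiked signal in these values was not tested further.

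Slopes on live weight were negative for ACSL5 and SLC27A6, with intervals that included 0. For ACSL5 they were -0.13, -0.27 and -0.34 per 10 kg on probe sets 1, 2 and 3, and for SLC27A6 -0.26 (95% interval -0.85 to 0.34). Among high-oleic animals alone they were -0.77, -0.97 and -1.11 for ACSL5 and -1.05 for SLC27A6. Among control animals alone they were 0.049, -0.081 and -0.13 for ACSL5 and -0.044 for SLC27A6. The difference between the slopes, high-oleic minus control, was -0.82 (95% interval -2.13 to 0.49) for ACSL5 probe set 1, -1.01 (95% interval -2.43 to 0.41) for SLC27A6 and -0.08 (95% interval -1.65 to 1.49) for VLDLR. Single animals moved these: for ACSL5 probe set 1 the difference was -1.84 without high-oleic animal 7, and for SLC27A6 it was -2.17 without high-oleic animal 7 and -0.36 without high-oleic animal 1. For ACSL5 probe sets 2 and 3 it was -0.89 and -0.98, and -1.84 and -2.36 without high-oleic animal 7. For VLDLR it was -0.49 when control animal 5 was left out and 0.12 when high-oleic animal 3 was. In limma 0 of 5 member probe sets passed this test of interaction, against 0% of all probe sets. Without control animal 5 the common slopes were -0.53, -0.61 and -0.90 for ACSL5 probe sets 1, 2 and 3 and -0.89 for SLC27A6, each over 1.5 times as steep as with that animal. For SLC27A6 the slope was -0.10 without high-oleic animal 1 and -0.061 without the diet term, and for ACSL5 probe set 1 it was -0.072 without high-oleic animal 8.

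Between each other, the uptake genes showed no relation that passed adjustment. SLC27A6 and VLDLR ran opposite, with r = -0.476 (permutation p = 0.0730, adjusted p = 0.536) and rho = -0.550 (permutation p = 0.0369, adjusted p = 0.349). The sign held within both diets, at r = -0.548 in high-oleic and -0.589 in control animals, and r was -0.449 without high-oleic animals 1 and 5. In the animals themselves, high-oleic animal 1 had the highest SLC27A6 at 8.39 and the lowest VLDLR of its group at 5.24, and control animal 7 the lowest SLC27A6 of its group at 6.87 and the highest VLDLR at 6.95. These animals also had the lowest spiked signal of the high-oleic diet and the highest of the control diet. That signal had r of 0.572 with VLDLR and -0.544 with SLC27A6, and its part in this relation was not tested. ACSL5 gave r = 0.263 with SLC27A6 (permutation p = 0.345) and -0.011 with VLDLR (permutation p = 0.970), with an adjusted p of 0.781 and 0.994.

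Of 126 other genes listed for lipid uptake, 11 were in the table and none passed either test. Their median diet difference was 0.07, with 6 of 11 above 0, against a median of -0.03 over all 3255 probe sets. Their median slope was 0.00077 per 10 kg, against 0.04 over all probe sets. Among fatty acid carriers, FABP7, a binding protein known best from brain, differed by -0.59 (95% interval -1.23 to 0.04). It was dim, at 2.83 ± 0.23 (SD, n = 8) on the high-oleic diet and 3.43 ± 0.85 (SD, n = 7) on the control diet. The FABP7 slope was 0.64 per 10 kg (95% interval 0.10 to 1.19), with a limma unadjusted p of 0.0237 and adjusted p of 0.916.

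The acyl-CoA synthetases other than ACSL5 were both for short chains. ACSS3, a mitochondrial enzyme for propionate, differed by -0.79 (95% interval -1.53 to -0.06), and ACSS2, which activates acetate for lipid synthesis, by -0.23 and -0.21 on its probe sets. ACSS3 was dim, at 3.40 ± 0.46 (SD, n = 8) on the high-oleic diet and 4.19 ± 0.97 (SD, n = 7) on the control diet. No difference between these genes and the long-chain ACSL5 was tested.

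Among receptors, LRP6, a Wnt co-receptor of the same family as VLDLR, differed by -0.14 and OLR1, which binds oxidised lipoproteins, by 0.27. OLR1 was dim, at 3.09 ± 0.50 (SD, n = 8) on the high-oleic diet and 2.83 ± 0.42 (SD, n = 7) on the control diet. In the lipase system, ANGPTL4, an inhibitor of lipoprotein lipase, differed by 0.45 and 0.54 on its probe sets, with slopes of -0.55 and -0.60 per 10 kg. APOC3, an apolipoprotein that slows triglyceride clearance, differed by -0.53 (95% interval -1.18 to 0.11). It was dim too, at 2.75 ± 0.14 (SD, n = 8) on the high-oleic diet and 3.28 ± 0.89 (SD, n = 7) on the control diet. Of the enzymes listed for the later fate of acyl-CoA, CPT1A, which passes it into mitochondria, differed by 0.54 (95% interval -0.06 to 1.14), with a slope of -0.50. LPIN1 and DGAT1, for glyceride synthesis, differed by 0.22 and 0.07, and ACOT7, for acyl-CoA hydrolysis, by 0.24. ACOT7 was dim, at 3.22 ± 0.85 (SD, n = 8) on the high-oleic diet and 2.99 ± 0.60 (SD, n = 7) on the control diet. Adjusted for live weight, diet differences were 0.14 for CPT1A, 0.0058 and 0.061 for ANGPTL4, -0.077 for FABP7, -0.48 for ACSS3 and -0.78 for APOC3. The limma adjusted p was 0.999 for the diet difference of each of the 11 genes without live weight in the fit.

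**Figure D5:**
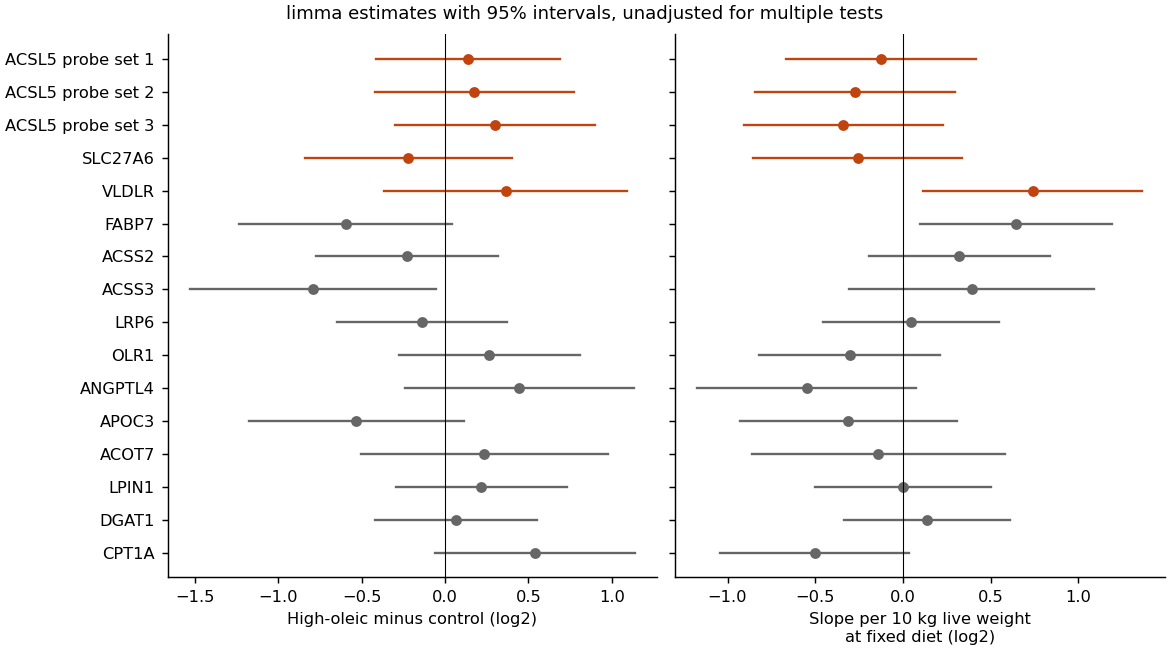
Diet difference (left, high-oleic minus control, log2) and slope per 10 kg of live weight at fixed diet (right, log2) with 95% intervals from limma, unadjusted for multiple tests, for the 5 member probe sets (orange) and 11 other uptake genes (grey). The interval of the VLDLR slope runs from 0.12 to 1.36 and that of the FABP7 slope from 0.10 to 1.19. Every diet interval of the 5 member probe sets includes 0, while that of ACSS3 runs from -1.53 to -0.06. FABP7 and ACSS3 are among the dim genes.

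Marker lists of other tissues held 15 of 32 skeletal muscle, 9 of 20 smooth muscle and pericyte, 5 of 17 endothelial, 4 of 19 lymphocyte, 8 of 16 fibroblast and 3 of 9 erythroid genes, and 16 of 26 interferon response genes. No gene of these lists, nor of the macrophage and fat cell lists, passed either limma test. Apart from the macrophage score with ACSL5, no score gave a relation with ACSL5, SLC27A6 or VLDLR that passed adjustment. For skeletal muscle, whose score ranged from -1.57 to 2.61 on the high-oleic diet and from -2.03 to 3.07 on the control diet, r was 0.277 with VLDLR (0.798 among high-oleic and 0.162 among control animals), 0.148 with ACSL5 and -0.013 with SLC27A6. The interferon score reached 2.54 in a high-oleic animal and 2.82 in a control animal, and gave r of 0.309 with ACSL5, or -0.450 without both of these animals.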

How the data were processed

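The authors deposited 1 table of log2 values for 3272 probe sets on 15 arrays of backfat RNA. GCOS and GCRMA are named, with no version or role, per the submitters' processing notes. That these are log2 values was inferred from the deposited range, 1.49 to 14.36. The platform table, which can be old, paired probe sets with genes, and 1455 probe sets had 1 symbol, 27 several and 1773 none. The 17 control probe sets were left out of tests.

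Diet differences (high-oleic minus control), slopes on live weight at fixed diet and their interaction were tested on all 3255 probe sets by limma 3.58.1 under R 4.3.3 (lmFit, then eBayes). Tests were two-sided at 0.05 after Benjamini-Hochberg adjustment. The limma scripts were tested on simulated data. Correlations used 100000 two-sided permutations (numpy 2.4.6), and live weight an exact test over 6435 splits. Figures used matplotlib 3.10.9. Named were all member probe sets, all measured genes of 5 uptake lists, and per member the 3 most alike and 2 most opposite genes. The members and the 14 gene lists were chosen with earlier results of these data known. The number of arrays limits the precision. Alternatives were quantile normalization, a minimum mean signal, centring on array medians, variance models, array weights, covariates, weight windows, single diets, animals left out and the animal number as a block. The labels give the number only as the name of an animal, and it was not used as a pairing in the main fits.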

Additional observations from a re-analysis of the deposited data

Results flagged for a closer look

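Within each diet, 38 checks for an animal far from its group gave 7 such values, where chance gives about 1.90 if the checks are independent. Control animal 1 had an ACSL5 signal of 6.27 on probe set 3, where the rest of the group had a median of 5.44. On probe sets 1 and 2 the same animal was the highest control animal, but not far from the others by this measure. Control animal 5 weighed 133 kg, against a median of 114 kg. In the same animal ANGPTL4 was 9.20 on one probe set, against a median of 10.78, and 8.57 on the other, against 10.15. CPT1A was 7.67 there, against 9.22. Control animal 4 had OLR1 at 3.74, against 2.63, and ACOT7 at 4.23, against 2.85.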

How the results depend on the processing

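No member probe set passed the threshold under any alternative run, and the lowest adjusted p of a member was 0.445. Of 371 recomputed member values 360 kept their sign and 11 did not. Some settings, such as the minimum mean signal and the variance models, leave a member's estimate as it was. Their signs could not change, so the count of 360 overstates the agreement. In animals of 109.5 to 118 kg the diet difference was -0.31, -0.37 and -0.28 for ACSL5 probe sets 1, 2 and 3, and with live weight in the fit it was -0.042 for probe set 2. The slope of ACSL5 probe set 1 was 0.049 in control animals alone and 0.039 with the macrophage score in the fit, an alternative chosen after seeing the data, as was the mean over probe sets for slopes. The slope difference of VLDLR was 0.021 with array weights and -0.49 to 0.12 with single animals left out. For all of these the cause was not tested. Over all probe sets, limma called 0 between diets, 1 with the spiked signal in the fit, 0 to 0 with single animals left out and 128 at an unadjusted p under 0.05. For the slope it called 0, 1 without the diet term, 6 in control animals alone, and 124 at an unadjusted p under 0.05. With single animals left out it called 0 to 5, the highest when control animal 2 was left out, and 2 when high-oleic animal 7 was. For the slope difference it called 0, and 0 to 5 with single animals left out, the highest without high-oleic animal 1. Live weight differed by -9.00 to -5.40 kg with single animals left out.

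With the animal number as a replicate block, limma called 0 probe sets between diets and placed 194 under an unadjusted p of 0.05, against 128 without the block. Same-numbered animals deviated together with r of -0.16 to 0.30, and 5 of 14 animals correlated best with their own number. These values were not set against arbitrary numbering, so whether same-numbered animals share a pattern was not tested. The main fits did not use the number as a pairing. Under the block VLDLR differed by 0.35 and SLC27A6 by -0.15. Dim probe sets limit what the lowest signals can show, and the number of animals limits the smallest difference that could be seen.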
